A study of Mus musculus with 13 samples.

Results

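The integrin and laminin subunits are 33 genes, 24 integrin chains (16 alpha and 8 beta) and 9 laminin chains. They were taken by gene symbol from a table of 23366 genes, and all 33 had 1 row each. RNA was sequenced from mouse primary muscle cells of mixed strain, prepared from the hind limbs of pups 2 to 3 days after birth. Myoblasts, the dividing precursors of muscle fibres, were kept in medium with calf serum and fibroblast growth factor. Myotubes, the fused cells they form, had spent 24 hours in differentiation medium (1% horse serum). There were 2 libraries of dICR/dICR myotubes, 5 of wild-type myotubes, 2 of dICR/dICR myoblasts and 4 of wild-type myoblasts. dICR/dICR cells lack the imprinting control region of the Igf2 and H19 locus on both chromosomes, and the series asks what misexpression of these genes does to muscle cells. The labels do not say whether replicates came from separate animals or cultures, so p-values measure only the spread between these samples.

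Integrins are membrane receptors made of 1 alpha and 1 beta chain that tie the cell's actin skeleton to the surrounding matrix or to other cells. Laminins are trimers of an alpha, a beta and a gamma chain and form the base of the basement membrane that wraps muscle fibres. In skeletal muscle the alpha 7 chain with beta 1 binds laminins that hold the alpha 2 chain. Loss of the alpha 2 chain gene causes a congenital muscular dystrophy in humans, and loss of alpha 7 a milder myopathy.

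Library totals were 35.56 to 56.44 M (mega) counts in 7 libraries, here the deep set, and 5.31 to 10.91 M in the other 6, here the shallow set. These sets come from the table and are not groups of the study. The deep set holds dICR/dICR myotubes 1 and 2, wild-type myotubes 1 to 3 and wild-type myoblasts 1 and 2. The shallow set holds wild-type myotubes 4 and 5, dICR/dICR myoblasts 1 and 2 and wild-type myoblasts 3 and 4. Small nucleolar RNA genes held 0.028 to 0.177% of the counts of deep libraries and 2.81 to 7.18% of those of shallow ones, so the sets differ in more than depth. Levels are given as CPM, a gene's counts scaled to a common library total after TMM scaling of that total. H19 stood at 52.4 to 71.5 CPM in the 4 dICR/dICR libraries and at 2340 to 40500 CPM in the 9 wild-type ones. Counts for the 33 genes made up 0.246 to 0.52% of each library. The muscle genes Des, Myod1 and Myog were detected in every library. The Y-linked gene Ddx3y stood at 20.5 to 176 CPM in each deep library and at 14.5 and 63.1 CPM in the dICR/dICR myoblasts, against 0.153 to 0.462 CPM in the 4 shallow wild-type libraries. In wild type the depth set and the sex of the pups therefore cannot be told apart, and the fits with the depth set as a term and the ratios of shallow to deep libraries carry both.

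Promoter windows are shown for 6 genes that the results turn on: Itgb7 and Lama2, whose genotype differences kept their direction in each alternative tried, and Itgb5, Itgb6, Itgb1 and Lamb2, which rose as wild-type myoblasts became myotubes. Each is the 250 bases upstream of the RefSeq start, read 5′ to 3′ on the gene's strand from RefSeq sequence on GRCm38.p6. Capitals mark matches to the E-box CANNTG, the kind of site bound by myogenic factors such as MyoD, and to the M-CAT motif CATTCC on either strand (GGAATG on the other), the kind of site bound by TEAD factors. The windows lie at chr15:102231936-102232185 (minus strand, Itgb7), chr10:27616943-27617192 (minus, Lama2), chr16:33829415-33829664 (plus, Itgb5), chr2:60722604-60722853 (minus, the upstream one of 2 entries for Itgb6), chr8:128685404-128685653 (plus, Itgb1) and chr9:108479612-108479861 (plus, Lamb2).
Itgb7: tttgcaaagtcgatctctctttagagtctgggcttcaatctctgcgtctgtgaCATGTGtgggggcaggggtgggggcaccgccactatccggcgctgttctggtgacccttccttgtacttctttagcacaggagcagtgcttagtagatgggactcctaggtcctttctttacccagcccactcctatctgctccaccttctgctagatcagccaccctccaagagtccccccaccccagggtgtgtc
Lama2: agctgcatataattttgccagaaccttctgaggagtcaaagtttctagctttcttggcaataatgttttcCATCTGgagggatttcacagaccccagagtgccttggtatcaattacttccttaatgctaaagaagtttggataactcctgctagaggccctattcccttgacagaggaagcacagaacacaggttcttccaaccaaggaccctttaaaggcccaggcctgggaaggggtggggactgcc
Itgb5: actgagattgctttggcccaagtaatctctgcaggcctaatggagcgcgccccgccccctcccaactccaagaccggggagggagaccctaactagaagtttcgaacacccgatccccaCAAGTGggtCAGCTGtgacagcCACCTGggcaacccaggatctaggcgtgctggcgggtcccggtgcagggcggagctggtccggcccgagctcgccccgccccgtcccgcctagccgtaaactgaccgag
Itgb6: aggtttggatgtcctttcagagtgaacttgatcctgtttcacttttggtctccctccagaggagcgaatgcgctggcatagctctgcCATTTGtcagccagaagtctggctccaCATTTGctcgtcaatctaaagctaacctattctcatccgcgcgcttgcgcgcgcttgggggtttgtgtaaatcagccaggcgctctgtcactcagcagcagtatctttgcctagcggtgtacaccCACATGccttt
Itgb1: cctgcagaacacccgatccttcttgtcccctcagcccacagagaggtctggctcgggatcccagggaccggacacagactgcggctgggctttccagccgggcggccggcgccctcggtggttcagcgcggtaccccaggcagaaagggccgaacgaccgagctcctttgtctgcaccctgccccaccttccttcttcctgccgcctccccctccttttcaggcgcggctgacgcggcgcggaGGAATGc
Lamb2: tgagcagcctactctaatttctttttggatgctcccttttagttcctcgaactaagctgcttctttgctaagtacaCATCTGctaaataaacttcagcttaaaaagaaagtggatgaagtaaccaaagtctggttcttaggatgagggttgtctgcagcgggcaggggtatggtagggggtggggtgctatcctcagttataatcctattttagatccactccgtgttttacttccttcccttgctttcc
The Itgb5 and Itgb6 windows each hold 3 E-boxes, those of Itgb7, Lama2 and Lamb2 hold 1 each, and the Itgb1 window holds 0 E-boxes and 1 M-CAT match. The middle E-box of Itgb5 has the letters CAGCTG. Of the 33 genes, 22 matched a promoter entry, and 17 of these 22 hold an E-box, 6 the form CAGCTG and 3 an M-CAT match. Of 32851 windows of the same length, 66.2% hold an E-box, 13% hold CAGCTG and 12.6% hold an M-CAT match. A match is a run of letters and not a measured binding site.

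Levels of different genes were compared per length, as CPM divided by the gene's exon length in kb. Itgb1, the beta chain shared by most matrix receptors, was the highest of the 33 in each group. It averaged 283.3 ± 30.4 CPM per kb in dICR/dICR myotubes, 390.5 ± 67.2 in wild-type myotubes, 229.0 ± 5.21 in dICR/dICR myoblasts and 217.0 ± 14.3 in wild-type myoblasts (SD). Itga7, its laminin-binding partner, came next, at 244.6 ± 54.6, 344.6 ± 56.4, 124.2 ± 24.7 and 137.3 ± 39.7 CPM per kb in the same groups. The spreads of these genes overlap in myotubes and stay apart in myoblasts. Itga6, another laminin receptor chain, ranked 3 of 33 in each group, at 41.9, 85.3, 63.5 and 53.9 CPM per kb.

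The order below these genes differed between the groups. In wild-type myotubes Itgb6, a partner of alpha v best known from epithelia, and Lamb2, the laminin beta chain of the neuromuscular junction, ranked 4 and 5, at 51.4 ± 11.9 and 48.7 ± 9.97 CPM per kb. In the other 3 groups Itgav ranked 4, at 31.8 ± 4.83 in dICR/dICR myotubes, 45.3 ± 2.03 in dICR/dICR myoblasts and 33.9 ± 1.35 in wild-type myoblasts. Among laminins, Lamb2, Lama5, Lama2 and Lamc1 lay between 6.25 and 48.7 CPM per kb in each group, and each of the other 5 chains stayed at or below 1.55. Itgb7, the beta chain of lymphocyte homing receptors, ranked 13 of 33 in both dICR/dICR groups, at 4.47 ± 1.92 in myotubes and 5.45 ± 5.61 CPM per kb in myoblasts. In wild type it ranked 24 in myotubes, at 0.275 ± 0.129, and 18 in myoblasts, at 0.698 ± 0.443.

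**Figure D1:**
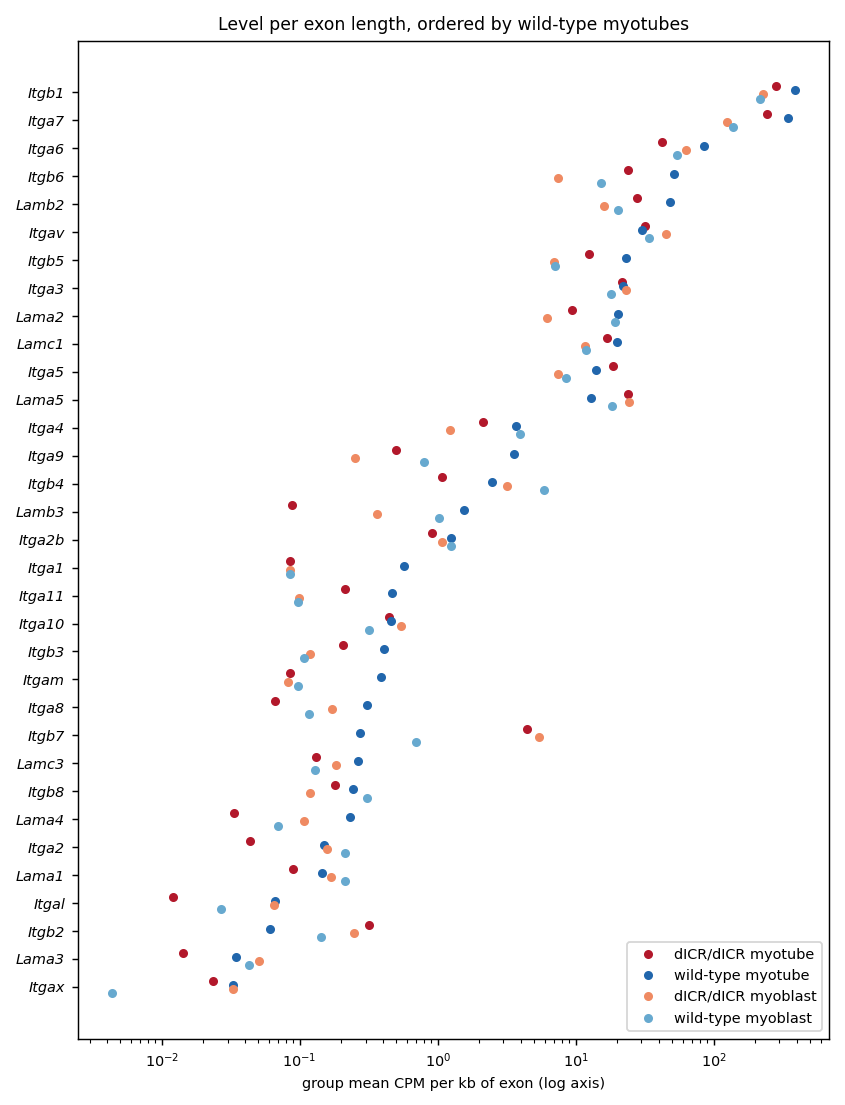
Mean CPM per kb of exon (log axis) of the 33 genes in the 4 groups, 1 point a group, ordered by wild-type myotubes. Itgb1 and Itga7 stand highest in each group, and the dICR/dICR points of Itgb7 (4.47 and 5.45) lie apart from the wild-type ones (0.275 and 0.698).

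Itgax, an alpha chain of dendritic cells, did not pass the filter on low counts. It had 2 and 7 counts in dICR/dICR myotubes, 2, 11, 7, 1 and 0 in wild-type myotubes, 2 and 1 in dICR/dICR myoblasts and 3, 1, 0 and 0 in wild-type myoblasts. The other 32 genes were tested among 16537. Itgal, Itgam and Itgb2, chains of leukocyte receptors, stayed at or below 2.31 CPM in each library.

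**Figure D2:**
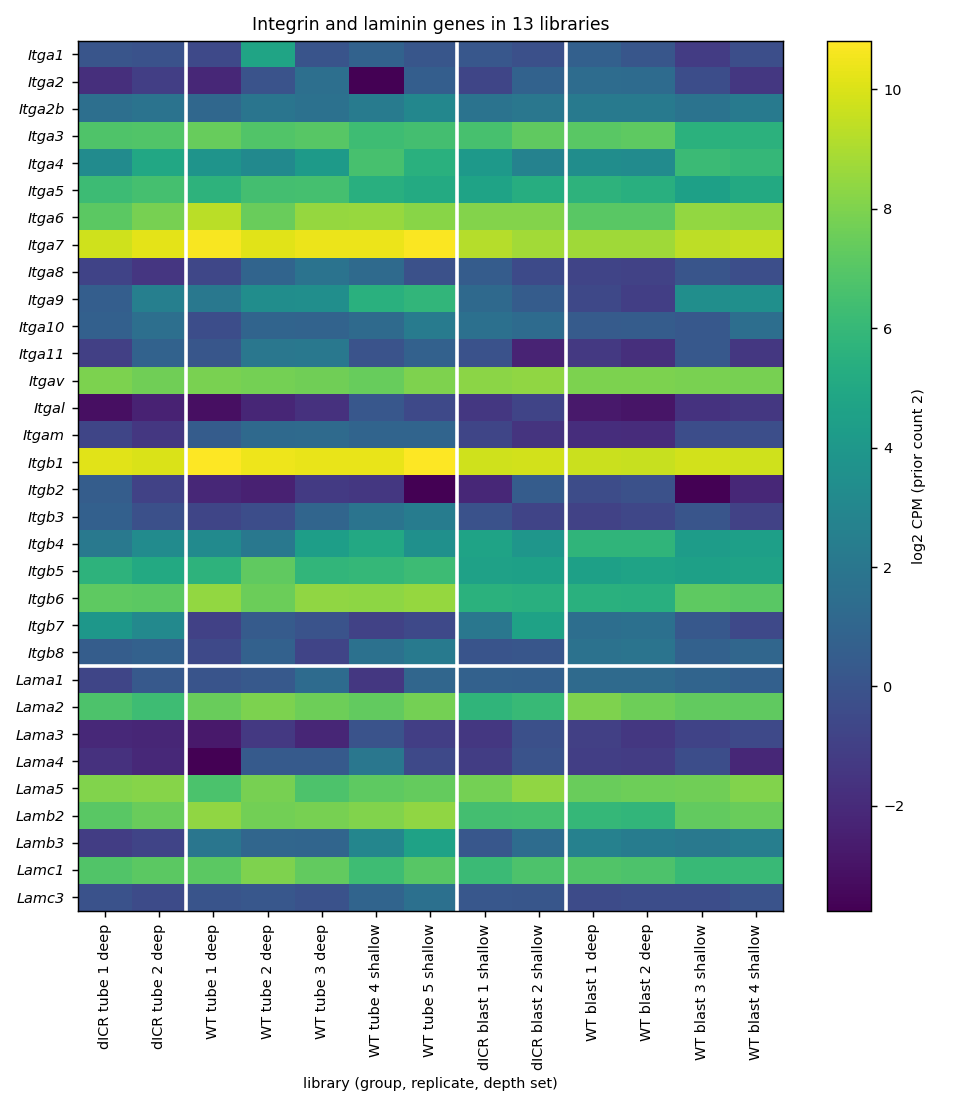
Log2 CPM (prior count 2) of the 32 tested genes, in rows with integrins above laminins, in the 13 libraries, in columns by group and depth set. Itga7 and Itgb1 are the brightest rows, and Itga4 and Itga9 are brighter in the shallow than in the deep wild-type libraries.

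The genotype difference in myotubes asks what the deletion did 24 hours after the change of medium. Itgb7 was the 1 of 32 genes that passed over all libraries. It stood at 15.6 and 8.34 CPM in dICR/dICR myotubes, against 0.457, 1.27, 0.890, 0.462 and 0.611 CPM in wild-type myotubes 1 to 5. Each dICR/dICR library was higher than each wild-type one, and the counts behind these values sum to 1211 and 99. The log2 fold change (dICR/dICR over wild type) was 3.95 ± 0.68 (SE), with an adjusted p of 0.0333 by the quasi-likelihood test of edgeR (Benjamini-Hochberg over all genes, as for each adjusted p here unless DESeq2 is named). Of all genes tested, 0.556% were called in either direction and 0.333% higher. Within the deep set, which holds both dICR/dICR myotubes and wild-type myotubes 1 to 3, the value was 3.75 ± 0.50 (adjusted p = 0.03), where 0.709% of genes were called.

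The call of Itgb7 was near the threshold. Its adjusted p was between 0.0505 and 0.504 without wild-type myoblast 1, wild-type myotubes 1, 3, 4 or 5, or either dICR/dICR myotube, with log2 fold changes of 3.43 to 4.33. Leaving out dICR/dICR myotube 1 gave the highest of these p-values, 0.504, with 1 dICR/dICR myotube left that was assumed to vary like the other libraries. DESeq2, which called 6.51% of genes, gave 3.90 ± 0.75 (adjusted p = 3.53e-05) and called 5 of the 32, Itgb7, Lama2, Lamb3, Itgam and Itga8.

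Itgb7 protein pairs with the alpha 4 or alpha E chain on lymphocytes. Itga4 stood at 9.74 and 31.6 CPM in dICR/dICR myotubes, against 13.7, 8.91, 17.8, 94.8 and 44.6 CPM in wild-type myotubes, and the groups overlapped. The leukocyte markers, of which 12 of 13 are in the table, summed to 4.47 and 3.90 CPM in dICR/dICR myotubes and to 2.52 to 14.4 CPM in wild-type myotubes. Ptprc, the general leukocyte gene, was at 0.0182 and 0.0475 CPM in dICR/dICR myotubes and at 0.0381 to 0.529 CPM in wild-type ones. Tyrobp and Cd3e were at 0 in both dICR/dICR myotubes. In wild-type myotubes 1 to 4 of 12 markers were at 0, against 2 in each dICR/dICR one. Itgb2, a leukocyte beta chain, was instead higher in dICR/dICR myotubes, at 1.40 and 0.475 CPM against 0 to 0.337 CPM in wild type. That rise of 2.24 ± 0.98 on the log2 scale missed the threshold (adjusted p = 0.277). The leukocyte chains Itgam and Itgal were lower, at -2.2 and -2.1, and neither passed. Of the 8 leukocyte markers tested over all libraries, 6 were lower and 2 higher in dICR/dICR myotubes by log2 fold change, and 0 passed. In bulk RNA, fewer cells of a type and less RNA per cell cannot be told apart.

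Lama2, the laminin alpha chain of the muscle fibre basement membrane, was low in dICR/dICR myotubes. It stood at 105.2 and 78.2 CPM, against 178.8, 245.2, 195.2, 157.0 and 216.9 CPM in wild-type myotubes. The groups did not overlap. Its log2 fold change was -1.11 ± 0.27 over all libraries (adjusted p = 0.088) and -1.19 ± 0.25 within the deep set (adjusted p = 0.0884), and neither passed. It passed with the depth set as a term (-1.24 ± 0.24, adjusted p = 0.0217), where 2.57% of genes were called, and by DESeq2 (-1.19 ± 0.26, adjusted p = 0.00041).

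Lama5, an alpha chain of many basement membranes, stood at 261.9 and 284.1 CPM in dICR/dICR myotubes, against 101.3, 222.8, 106.8, 145.4 and 165.4 CPM in wild-type myotubes. Both dICR/dICR values were above the highest wild-type one, but the log2 fold change of 0.88 ± 0.31 did not pass (adjusted p = 0.191). Lamb2 stood at 136.9 and 177.0 CPM, against 330.3, 208.6, 230.8, 269.8 and 331.2 CPM, with -0.80 ± 0.44 (adjusted p = 0.371). Lamc1, the gamma chain of most laminins, stood at 117.7 and 140.4 CPM, against 143.3, 252.6, 158.2, 78.8 and 129.8 CPM, and the groups overlapped. Lama4, a chain of vessel and nerve basement membranes, stood at 0.236 and 0.166 CPM, against 0, 1.24, 1.20, 4.002 and 0.611 CPM. Lamb3, a chain of epithelial laminin, stood at 0.382 and 0.523 CPM, against 3.81, 2.02, 1.90, 7.54 and 24.4 CPM, with -4.08 ± 1.07 (adjusted p = 0.0996). Lamb3 itself ran from 1.90 to 24.4 CPM among the wild-type myotubes.

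The main muscle integrin chains gave values on the lower side that did not pass. Itga7 stood at 853.8 and 1174 CPM in dICR/dICR myotubes, against 1627, 1130, 1336, 1347 and 1702 CPM in wild-type myotubes (log2 fold change -0.49 ± 0.31, adjusted p = 0.438). Itgb1 stood at 1163 and 998.9 CPM, against 1734, 1369, 1282, 1266 and 1798 CPM, with -0.46 ± 0.24 (adjusted p = 0.353). The Itga7 groups overlapped and the Itgb1 groups did not. Itga6 stood at 140.4 and 225.2 CPM, against 634.8, 181.9, 362.5, 382.5 and 298.6 CPM, with -1.03 ± 0.52 (adjusted p = 0.331). Itgb5, a vitronectin receptor chain, stood at 50.2 and 34.6 CPM, against 50.4, 150.9, 57.7, 62.0 and 73.9 CPM, with -0.90 ± 0.38 (adjusted p = 0.266). Itgb6 stood at 147.9 and 142.4 CPM, against 348.9, 184.8, 333.2, 326.6 and 363.4 CPM, with -1.10 ± 0.50 (adjusted p = 0.288). For Itgb5 and Itgb6 each dICR/dICR library was below each wild-type one, by a narrow margin for Itgb5.

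The fibronectin receptor chain Itga5 stood at 73.8 and 90.2 CPM in dICR/dICR myotubes, against 51.0, 89.6, 90.7, 42.5 and 35.9 CPM in wild-type myotubes. Itgav, the alpha chain of vitronectin receptors, stood at 248.3 and 200.1 CPM, against 231.8, 215.7, 203.6, 170.2 and 253.4 CPM, a log2 fold change of 0.06 ± 0.21 (adjusted p = 0.901). Itga9, a receptor chain for tenascin and osteopontin, stood at 1.45 and 5.70 CPM, against 4.19, 10.3, 10.8, 44.3 and 57.4 CPM. Itgb3 stood at 1.58 and 0.784 CPM, against 0.533, 0.723, 1.92, 3.54 and 5.09 CPM. All 4 overlapped between genotypes, and Itga9 was highest in the shallow wild-type myotubes 4 and 5.

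Over the 32 genes, 26 log2 fold changes were negative and 6 positive, with a median of -0.91, against -0.06 over all genes tested. By class, 12 of 15 alpha chains, 6 of 8 beta chains and 8 of 9 laminin chains were negative. Within the deep set 21 of 31 were negative and the median was -0.53. Higher groups without overlap were Itgb7, Itgb2 and Lama5, where 10.5% of all genes were higher in this way. Lower ones were Itgb1, Itgb5, Itgb6, Itga8, Itgam, Lama2, Lamb2 and Lamb3, where 8.76% of all genes were lower in this way. Apart from Itgb7 and Lamb3, the values lay between -2.81 (Itga9) and 2.24 (Itgb2). Unadjusted, 9 of 32 had a p under 0.05, against 16.8% of all genes. As a sum, muscle identity markers were lower as well: the 11 of 12 in the table summed to 10640 and 17970 CPM in dICR/dICR myotubes and to 23270 to 40810 CPM in wild-type myotubes. The 10 cell-cycle markers summed to 2476 and 1167 CPM, against 82.3 to 1194 CPM. The 10 smooth muscle and pericyte markers, some of which young muscle also expresses, summed to 1240 and 2404 CPM, against 2397 to 4777 CPM, with 1 of 10 at 0 in both dICR/dICR libraries. The 9 Schwann cell markers summed to 173.3 and 297.4 CPM, against 309.7 to 885.8 CPM. Sums lean on the most abundant genes of a list. By log2 fold change over all libraries, 8 of 11 muscle identity markers tested were negative and 3 positive. Smooth muscle and pericyte markers had 6 of 9 negative and 3 positive, and Schwann cell markers 6 of 8 negative and 2 positive. Of these 3 lists 0 genes passed. All 10 cell-cycle markers were positive and 1 passed, where 0.556% of all genes did. The part of these markers in the integrin and laminin values was not tested.

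Of the 26 genes of the adhesion complex that links integrins to actin, 1 passed. Pgm5, a protein of muscle cell attachments, stood at 36.2 and 50.6 CPM in dICR/dICR myotubes, against 333.1, 313.2, 461.7, 575.2 and 810.7 CPM in wild-type myotubes. It fell by 3.52 ± 0.62 on the log2 scale (adjusted p = 0.035), and by 3.10 ± 0.29 within the deep set (adjusted p = 0.0122). Of 17 matrix ligands 0 passed and of 15 basement membrane partners 0 passed by edgeR. At an unadjusted p under 0.05 were 5 and 4 of them, against 16.8% of all genes, and the medians of these lists were -1.18 and -0.74.

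**Figure D3:**
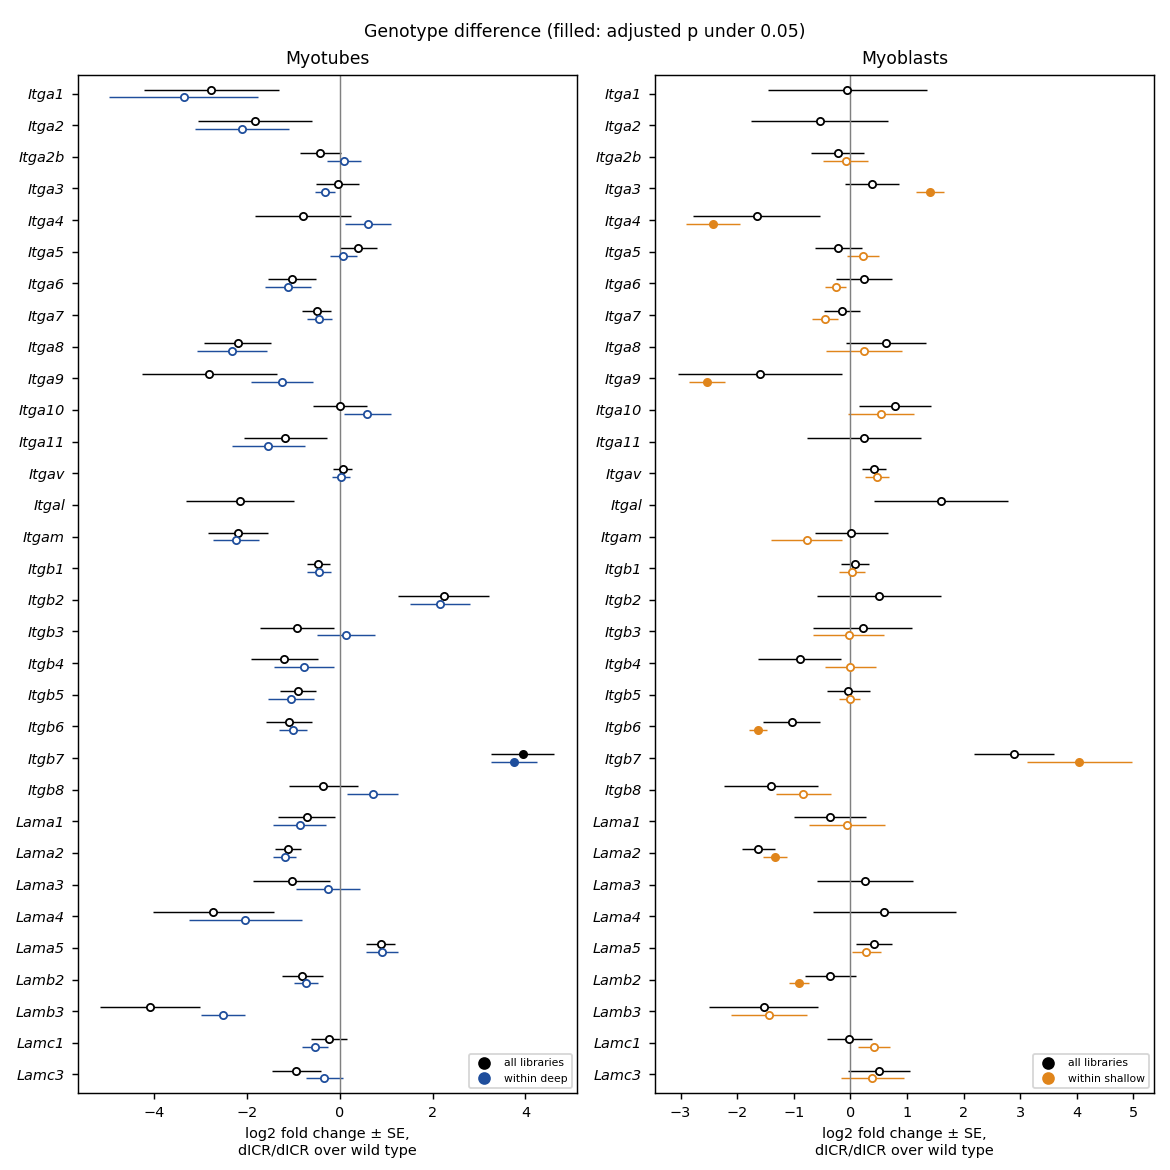
Log2 fold change ± SE (dICR/dICR over wild type) of the tested genes in myotubes (left) and myoblasts (right), over all libraries in black and within the depth set that holds both genotypes in colour; filled points passed an adjusted p of 0.05. Itgb7 is the filled gene in myotubes (3.95 and 3.75), and 7 genes are filled within the shallow set in myoblasts.

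The genotype difference in myoblasts asks what differed before the change of medium. Over all libraries 0 of the 32 genes passed by edgeR, where 0.0302% of all genes did. At an unadjusted p under 0.05 were Lama2 and Itgb7, 2 of 32, against 12.1% of all genes, and the same 2 passed by DESeq2, which called 2.41% of genes. Lama2 stood at 54.9 and 67.8 CPM in dICR/dICR myoblasts, against 251.9, 193.5, 159.0 and 153.7 CPM in wild-type myoblasts 1 to 4. Each dICR/dICR value was below each wild-type one, and the log2 fold change was -1.63 ± 0.29 (adjusted p = 0.0907). Itgb7 stood at 3.99 and 25.3 CPM, against 2.78, 2.99, 1.11 and 0.613 CPM, with 2.89 ± 0.71 (adjusted p = 0.17). Without dICR/dICR myoblast 2 the Itgb7 value was 1.02 ± 0.77 (adjusted p = 0.932), so its size rests on that library.

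With the depth set as a term both passed, Lama2 at -1.46 ± 0.25 (adjusted p = 0.0185) and Itgb7 at 3.77 ± 0.73 (adjusted p = 0.0267), where 2.01% of genes were called. The leukocyte markers summed to 7.51 and 9.12 CPM in dICR/dICR myoblasts and to 6.29 to 9.15 CPM in wild-type myoblasts, with Ptprc at 0.391 CPM in each dICR/dICR library. Aif1 and Tyrobp were at 0 in both, among 3 of 12 at 0 in each, against 1 to 5 in wild-type myoblasts. Over all libraries 6 of the 8 leukocyte markers tested were higher and 2 lower in dICR/dICR by log2 fold change, and 0 passed. Within the shallow set 2 of 2 tested were higher and 1 passed, where 11.3% of all genes rose. The leukocyte sums of the shallow wild-type myoblasts 3 and 4 were 6.29 and 6.43 CPM.

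Within the shallow set, dICR/dICR myoblasts 1 and 2 were set against wild-type myoblasts 3 and 4. Of 25 genes tested there, 2 rose and 5 fell, where 11.3% of all genes rose and 10.3% fell, 21.6% in all. These 4 libraries also differ in Ddx3y, at 14.5 and 63.1 CPM for dICR/dICR and at 0.247 and 0.153 CPM for wild-type myoblasts 3 and 4, so genotype and the sex of the pups cannot be told apart in this comparison. The muscle identity markers also moved with it, at 3872 and 2740 CPM in dICR/dICR against 11590 and 12320 CPM in wild-type myoblasts 3 and 4, while wild-type myoblasts 1 and 2 summed to 3251 and 3496 CPM. Cell-cycle markers summed to 2265 and 2384 CPM in dICR/dICR, against 1068 and 1023 CPM in wild-type myoblasts 3 and 4. The part of either in the values below was not tested.

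The genes that rose within the shallow set were Itga3 and Itgb7. Itga3, a laminin receptor chain best known from epithelia, stood at 94.2 and 150.6 CPM in dICR/dICR, against 46.1 and 48.0 CPM in wild-type myoblasts 3 and 4, a log2 fold change of 1.40 ± 0.25 (adjusted p = 0.00882). In the deep wild-type myoblasts 1 and 2 it stood at 134.2 and 148.0 CPM, within the dICR/dICR range. Itgb7 rose by 4.04 ± 0.93 (adjusted p = 0.0211).

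Those that fell were Itga4, Itga9, Itgb6, Lama2 and Lamb2. Itga4 stood at 17.6 and 6.39 CPM in dICR/dICR, against 72.2 and 61.1 CPM in wild-type myoblasts 3 and 4 (-2.43 ± 0.48, adjusted p = 0.0132). Itga9 stood at 2.27 and 1.30 CPM, against 10.9 and 11.03 CPM (-2.54 ± 0.31, adjusted p = 0.00359). Itgb6 stood at 47.2 and 43.5 CPM, against 147.6 and 137.9 CPM (-1.63 ± 0.16, adjusted p = 0.00224). In the deep wild-type myoblasts 1 and 2 these 3 genes stood near or below the dICR/dICR values, at 10.2 and 9.74 CPM for Itga4, 0.578 and 0.408 CPM for Itga9 and 44.5 and 43.4 CPM for Itgb6. Lamb2 stood at 88.3 and 91.2 CPM, against 159.7 and 180.0 CPM (-0.90 ± 0.18, adjusted p = 0.0126), while the deep wild-type myoblasts 1 and 2 had 61.9 and 57.3 CPM. Lama2 fell by 1.33 ± 0.21 (adjusted p = 0.00649), and of these 5 it alone lay below the deep wild-type myoblasts as well. With 6 means of group and depth set fitted to all 13 libraries, 6 of the 7 passed, all but Lamb2, where 5.25% of all genes did. Part of the Itga4 exons, 127 bases, overlaps Cerkl on the other strand, as do 9 bases of Itga7 with Mettl7b and 372 of Itga8 with E030013I19Rik (GENCODE models), and no source used here gives the strand setting of the counting.

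The other chains known from muscle did not pass in myoblasts, over all libraries or within the shallow set, where Lama4 was under the filter. Itgb1 stood at 859.5 and 887.6 CPM in dICR/dICR, against 810.0, 761.0, 886.7 and 853.6 CPM in wild type, a log2 fold change of 0.08 ± 0.25. Itga7 stood at 587.0 and 442.4 CPM, against 431.1, 427.5, 668.8 and 749.0 CPM (-0.15 ± 0.32). Itgb5 stood at 23.8 and 23.3 CPM, against 23.3, 25.4, 23.3 and 24.8 CPM (-0.04 ± 0.38). Itgav stood at 309.6 and 329.8 CPM, above 249.9, 240.8, 239.8 and 226.7 CPM in wild type (0.42 ± 0.21, adjusted p = 0.442). Itga6 stood at 275.5 and 278.1 CPM, against 134.8, 133.8, 346.4 and 324.3 CPM, and Itga5 at 26.0 and 39.2 CPM, against 50.2, 43.9, 22.9 and 33.4 CPM. Lama5 stood at 217.7 and 336.5 CPM, against 176.3, 192.1, 201.7 and 260.3 CPM, and Lamc1 at 71.4 and 106.9 CPM, against 115.8, 108.5, 67.4 and 68.6 CPM. All of these except Itgav overlapped between genotypes. Itgb3 stood at 0.860 and 0.521 CPM, against 0.466, 0.564, 0.987 and 0.460 CPM, and Lama4 at 0.391 and 0.912 CPM, against 0.410, 0.369, 0.740 and 0.153 CPM, both overlapping.

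Over the 32 genes 16 values were positive and 16 negative, with a median of 0.00, against -0.06 over all genes. Groups did not overlap, with dICR/dICR higher, for Itgav, Itgal, Itgb7 and Lamc3 (14.2% of all genes), and lower for Itgb8, Lama2 and Lamb3 (14.3% of all genes). Of the genes around the receptors, 0 of 26 adhesion complex genes, 0 of 17 matrix ligands and 0 of 15 basement membrane partners passed over all libraries by edgeR. At an unadjusted p under 0.05 were 4, 2 and 7 of them, against 12.1% of all genes. With the depth set as a term 2, 1 and 2 of them fell and 0 rose, where 212 of 16537 genes fell and 121 rose. Within the shallow set, where 10.3% of all genes fell and 11.3% rose and where Ddx3y and the muscle markers differ too, 10 of the 15 basement membrane partners fell and 0 rose. They include Sgca of the dystrophin complex (-2.19 ± 0.17, adjusted p = 0.00116) and the basement membrane protein gene Fras1 (-2.91 ± 0.35, adjusted p = 0.00339). Of 24 adhesion complex genes 7 fell, among them Cav3, the muscle caveolin gene, and 1 rose, the tensin gene Tns3. Of 13 matrix ligands 3 fell, among them the thrombospondin gene Thbs1 and the periostin gene Postn, and 1 rose.

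Differentiation in wild type asks which receptor and matrix chains change as myoblasts become myotubes. Over all libraries 7 of the 32 genes rose and 0 fell, where 8.86% of all genes rose and 19.1% were called in either direction. The 7 were the beta chains Itgb1, Itgb5 and Itgb6, the alpha chains Itga7, Itga11 and Itgam, and the laminin chain Lamb2. Unadjusted, 15 of 32 had a p under 0.05, against 33.2% of all genes, and Itgb4 and Itgb7 were on the lower side among them. With library size alone as the scaling, which moved the median of all genes by -0.28, 4 of the 32 rose and 0 fell. Over all genes 779 rose and 2825 fell with that scaling, against 1466 and 1692 with TMM scaling. The higher ones were thus 21.6% of the calls, against 46.4% of the calls with TMM scaling.

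Itga7 stood at 1627, 1130, 1336, 1347 and 1702 CPM in wild-type myotubes, against 431.1, 427.5, 668.8 and 749.0 CPM in wild-type myoblasts. The groups did not overlap, and the log2 fold change (myotubes over myoblasts) was 1.33 ± 0.25 (adjusted p = 0.00494). Its partner Itgb1 stood at 1734, 1369, 1282, 1266 and 1798 CPM, against 810.0, 761.0, 886.7 and 853.6 CPM, and rose by 0.85 ± 0.19 (adjusted p = 0.0116). With library size alone as the scaling Itgb1 was at 0.55 ± 0.19 (adjusted p = 0.0567). Itga7 passed within each depth set, at 1.13 ± 0.23 in the shallow and 1.70 ± 0.28 in the deep one, and Itgb1 at 0.84 ± 0.23 and 0.93 ± 0.26.

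Itgb5 rose by 1.71 ± 0.31 (adjusted p = 0.00376), at 50.4, 150.9, 57.7, 62.0 and 73.9 CPM in myotubes, against 23.3, 25.4, 23.3 and 24.8 CPM in myoblasts. The myoblast values lie close together, and wild-type myotube 2 was the highest library. Itgb6 rose by 1.74 ± 0.39 (adjusted p = 0.0108), at 348.9, 184.8, 333.2, 326.6 and 363.4 CPM, against 44.5, 43.4, 147.6 and 137.9 CPM. Here wild-type myotube 2 was the lowest myotube library, and the shallow myoblasts 3 and 4 were on average 3.25 times as high as the deep ones. Lamb2 rose by 1.26 ± 0.35 (adjusted p = 0.0264), at 330.3, 208.6, 230.8, 269.8 and 331.2 CPM, against 61.9, 57.3, 159.7 and 180.0 CPM. Lamb2 did not pass without wild-type myoblast 1 or 2 or wild-type myotube 1 or 5 (adjusted p between 0.0535 and 0.0773). All 3 passed within each depth set.

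Itgam and Itga11 rose from low levels. Itgam, the alpha chain of a macrophage and neutrophil receptor, stood at 1.33, 2.28, 2.31, 1.85 and 1.83 CPM in myotubes, against 0.205, 0.194, 0.740 and 0.766 CPM in myoblasts (2.22 ± 0.53, adjusted p = 0.0143). Its usual partner Itgb2 stayed at or below 0.836 CPM in each wild-type library, and Ptprc at or below 0.919 CPM. The leukocyte markers summed to 2.52 to 14.4 CPM in wild-type myotubes and to 6.29 to 9.15 CPM in wild-type myoblasts. Over all libraries 5 of the 8 tested were positive and 3 negative by log2 fold change, and 0 rose and 2 fell. Itga11, a collagen receptor chain of fibroblasts, stood at 1.03, 3.96, 4.14, 0.924 and 1.63 CPM, against 0.317, 0.214, 1.11 and 0.306 CPM (2.42 ± 0.77, adjusted p = 0.0466), and the groups overlapped. The Itga11 call was lost without wild-type myoblasts 1, 2 or 4 or wild-type myotubes 2, 3 or 5 (adjusted p between 0.0562 and 0.135). Fibroblast markers summed to 1.49, 13.3, 47.3, 32.5 and 5.30 CPM in wild-type myotubes and to 5.82 to 9.43 CPM in wild-type myoblasts. Over all libraries 2 of the 8 fibroblast markers tested rose and 0 fell, and their part was not tested. Sums of other markers also moved with stage, though some of the genes went the other way. Markers of muscle identity summed to 23270 to 40810 CPM in wild-type myotubes and to 3251 to 12320 CPM in wild-type myoblasts. Smooth muscle and pericyte markers summed to 2397 to 4777 CPM in myotubes and to 144.7 to 597.3 CPM in myoblasts, with at most 2 of 10 at 0 in a library. Schwann cell markers summed to 309.7 to 885.8 CPM in myotubes and to 42.3 to 161.9 CPM in myoblasts, with at most 3 of 9 at 0, and cell-cycle markers to 82.3 to 1194 CPM in myotubes and to 1023 to 2744 CPM in myoblasts. Gene by gene over all libraries, 6 of 11 muscle identity markers rose and 2 fell, and 3 of 9 smooth muscle and pericyte markers rose and 1 fell. Of 8 Schwann cell markers 1 rose and 0 fell, and of 10 cell-cycle markers 0 rose and 5 fell. Of all genes 8.86% rose and 10.2% fell. The part of these markers in the integrin and laminin values of this comparison was not tested.

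Within the depth sets other genes passed as well. In the shallow set 8 of 25 rose and 0 fell, where 11.2% of all genes rose and 11.4% fell (22.6% in all), and these were Itga7, Itgb1, Itgb5, Itgb6, Lamb2, Itga9 (2.24 ± 0.27), Itga3 (0.84 ± 0.25) and Itgb3 (2.53 ± 0.56). The first 6 of these passed in the deep set as well. Itga3 stood at 76.8 and 89.4 CPM in shallow myotubes, against 46.1 and 48.0 CPM in shallow myoblasts, and Itgb3 at 3.54 and 5.09 CPM, against 0.987 and 0.460 CPM. In the deep set 8 of 31 rose and 3 fell, where 11.6% of all genes rose and 10.6% fell (22.2% in all). Itga9 rose there by 4.12 ± 0.78, at 4.19, 10.3 and 10.8 CPM in myotubes 1 to 3, against 0.578 and 0.408 CPM in myoblasts 1 and 2. In the shallow set it stood at 44.3 and 57.4 CPM in myotubes 4 and 5, against 10.9 and 11.03 CPM in myoblasts 3 and 4. Adding the depth set as a term gave 11 of 32 genes that rose and 0 that fell. There 2530 of 16537 genes rose and 2737 fell (31.8% called in either direction). Over all libraries the Itga9 value of 2.20 ± 1.07 did not pass (adjusted p = 0.176). The shallow wild-type libraries were 6.06 times as high in Itga9 as the deep ones in myotubes and 22.2 times in myoblasts.

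The 3 that fell in the deep set were Itgb4, Itgb7 and Itgb8. Itgb4, the laminin receptor chain of epithelial hemidesmosomes, stood at 9.22, 4.16 and 21.4 CPM in deep myotubes, against 54.4 and 55.3 CPM in deep myoblasts (-2.21 ± 0.63, adjusted p = 0.0434). In the shallow set it stood at 32.8 and 11.8 CPM, against 19.6 and 22.1 CPM. Itgb7 stood at 0.457, 1.27 and 0.890 CPM, against 2.78 and 2.99 CPM (-1.68 ± 0.48, adjusted p = 0.0437). Itgb8, a partner of alpha v that activates transforming growth factor beta, stood at 0.610, 1.62 and 0.505 CPM, against 3.26 and 3.46 CPM (-1.84 ± 0.54, adjusted p = 0.0465). In the shallow set Itgb8 stood at 3.08 and 4.48 CPM in myotubes, against 1.60 and 1.99 CPM in myoblasts, so its direction was opposite there.

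The other muscle chains did not pass over all libraries. Lama2 differed by 0.07 ± 0.21 (adjusted p = 0.864), with the myotubes at 157.0 to 245.2 CPM and the myoblasts at 153.7 to 251.9 CPM. Lama5 differed by -0.49 ± 0.25 (adjusted p = 0.207) and Lamc1 by 0.76 ± 0.31 (adjusted p = 0.11). Lama4 stood at 0, 1.24, 1.20, 4.002 and 0.611 CPM in myotubes, against 0.410, 0.369, 0.740 and 0.153 CPM in myoblasts. Itgav differed by -0.15 ± 0.17 (adjusted p = 0.568), Itga5 by 0.72 ± 0.33 (adjusted p = 0.146), Itga6 by 0.67 ± 0.40 (adjusted p = 0.268) and Itga4 by -0.09 ± 0.80 (adjusted p = 0.956). Itga4 was 5.18 times as high in the shallow as in the deep wild-type myotubes and 6.69 times in the myoblasts. Itgb3, the platelet receptor chain, differed by 1.89 ± 0.68 (adjusted p = 0.07). Over the 32 genes 21 values were positive and 11 negative, with a median of 0.69, against 0.02 over all genes. Groups did not overlap for 6 of the 7 that rose, all but Itga11, where 9.07% of all genes were higher in this way.

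**Figure D4:**
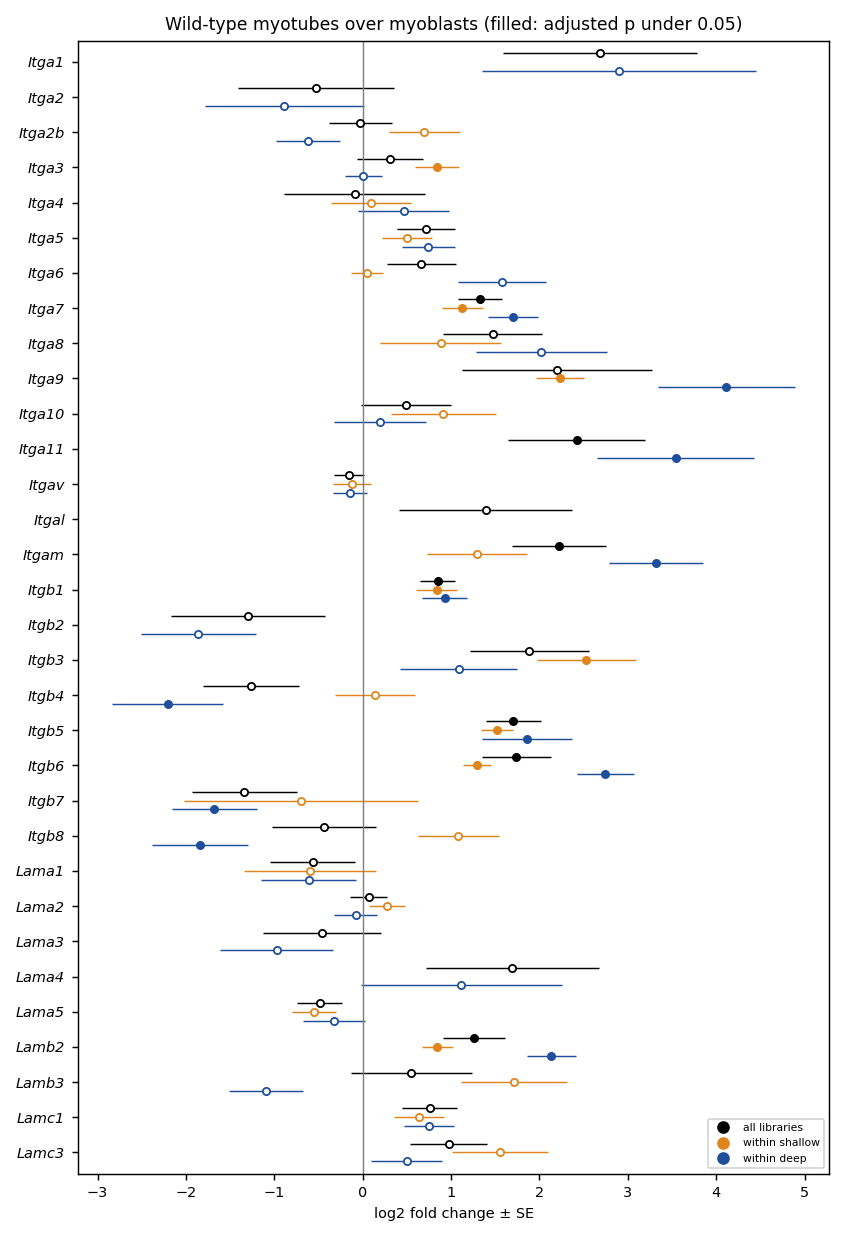
Log2 fold change ± SE (wild-type myotubes over wild-type myoblasts) of the tested genes over all libraries (black), within the shallow set (orange) and within the deep set (blue); filled points passed an adjusted p of 0.05. Itga7, Itgb1, Itgb5, Itgb6 and Lamb2 are filled and positive in all 3 fits.

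Among the partners of these receptors in wild-type differentiation, 4 of 26 adhesion complex genes rose and 3 fell, where 8.86% of all genes rose and 10.2% fell. Pgm5 rose by 3.68 ± 0.46 (adjusted p = 0.000715), the tensin gene Tns1 rose by 2.70 and the kinase gene Src fell by 1.24. Of 17 matrix ligands 4 rose and 5 fell. Vcam1, a ligand of alpha 4 integrins, fell by 2.34 ± 0.22 (adjusted p = 0.000287), and Spp1, the osteopontin gene, fell by 4.28 ± 0.60 (adjusted p = 0.00125). Of 15 basement membrane partners 3 rose and 2 fell. Dag1, which encodes the dystroglycan receptor for laminin, rose by 2.07 ± 0.30 (adjusted p = 0.00141). The first of these lists had a median of 0.27, the second of 0.50 and the third of 0.85.

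**Figure D5:**
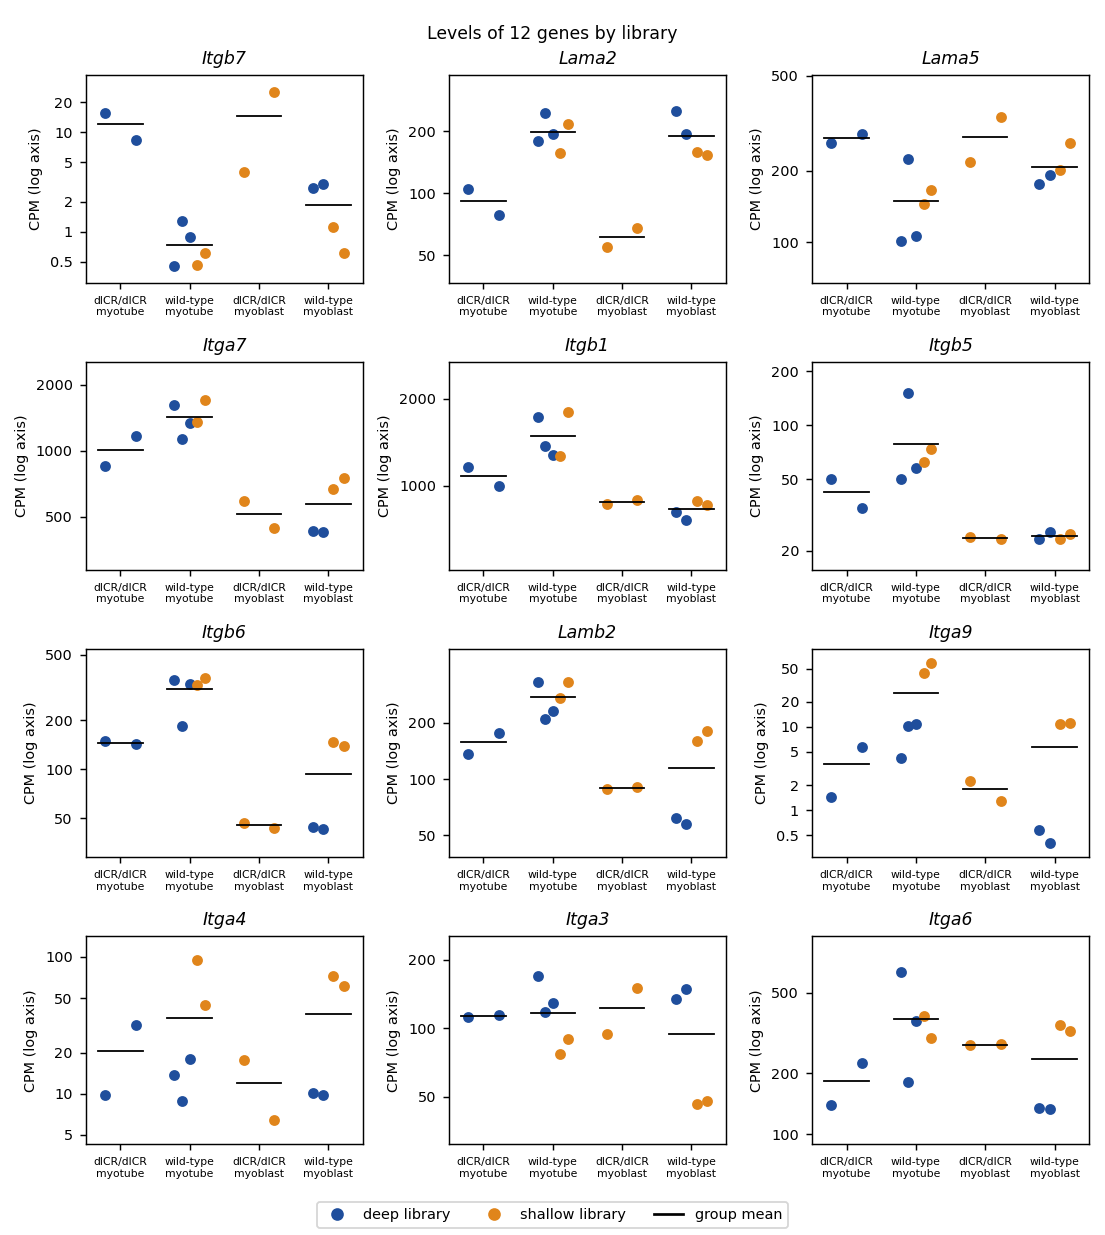
CPM (log axis) of 12 genes in each library, by group, with deep libraries in blue, shallow libraries in orange and the group mean as a bar. Lama2 lies lower and Itgb7 higher in both dICR/dICR groups than in wild type, and the orange wild-type myoblasts of Itgb6, Lamb2, Itga4 and Itga9 lie above the blue ones.

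Differentiation in dICR/dICR compares myotubes that are all deep with myoblasts that are all shallow, so stage and depth set cannot be told apart and no value within a set exists. Over all libraries 0 of 32 genes passed by edgeR, where 0.145% of all genes did. Itgb6, Itga5 and Itga7, 3 of 32, had an unadjusted p under 0.05, against 19.2% of all genes, with log2 fold changes (myotubes over myoblasts) of 1.68 ± 0.57, 1.33 ± 0.49 and 0.98 ± 0.37. Itgb6 stood at 147.9 and 142.4 CPM in dICR/dICR myotubes, against 47.2 and 43.5 CPM in dICR/dICR myoblasts. Itga7 stood at 853.8 and 1174 CPM, against 587.0 and 442.4 CPM, and Itga5 at 73.8 and 90.2 CPM, against 26.0 and 39.2 CPM. Itgb1 stood at 1163 and 998.9 CPM, against 859.5 and 887.6 CPM (0.31 ± 0.28), Itgb5 at 50.2 and 34.6 CPM, against 23.8 and 23.3 CPM (0.85 ± 0.44), and Lamb2 at 136.9 and 177.0 CPM, against 88.3 and 91.2 CPM (0.81 ± 0.51). In each of these 6 genes both myotube libraries were above both myoblast libraries. The same held for Lama2, Lamc1 and Itgb8 and for no other of the 32, and 30% of all genes showed this pattern in this comparison. Lama2 stood at 105.2 and 78.2 CPM, against 54.9 and 67.8 CPM (0.58 ± 0.31), and Itgb7 at 15.6 and 8.34 CPM, against 3.99 and 25.3 CPM (-0.28 ± 0.83). Muscle identity markers summed to 10640 and 17970 CPM in dICR/dICR myotubes, against 3872 and 2740 CPM in dICR/dICR myoblasts. Smooth muscle and pericyte markers summed to 1240 and 2404 CPM, against 327.9 and 208.4 CPM, and Schwann cell markers to 173.3 and 297.4 CPM, against 70.2 and 43.3 CPM. By log2 fold change, 10 of 11 muscle identity markers tested were positive and 1 negative. Smooth muscle and pericyte markers had 6 of 9 positive and 3 negative, and Schwann cell markers 3 of 8 positive and 5 negative. Of these lists 0 genes passed. Their part was not tested.

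With the depth set as a term, where the set effect is estimated from wild type alone, and with it the difference in Ddx3y that the dICR/dICR libraries do not share, 5 genes rose in dICR/dICR, where 4.8% of all genes rose and 7.63% were called in either direction. These were Itga4 (3.31 ± 0.70), Itga7 (1.40 ± 0.36), Itga9 (4.36 ± 0.90), Itgb6 (2.60 ± 0.50) and Lamb2 (1.63 ± 0.44), with adjusted p between 0.0118 and 0.043. The CPM values of Itga4 and of Itga9 overlapped between the stages. DESeq2 called 1 of the 32, on the lower side, where it called 6.92% of genes. Lower in both myotube libraries than in both myoblast libraries were 12 genes, among them Itga6, Itgav and Itgb4, where 29.1% of all genes were. Dag1 was the only basement membrane partner that passed over all libraries, at 480.3 and 575.0 CPM in dICR/dICR myotubes, against 66.1 and 49.0 CPM in dICR/dICR myoblasts (3.20 ± 0.46, adjusted p = 0.027). No adhesion complex gene and no matrix ligand passed there by edgeR, with 8 of 26 and 7 of 17 at an unadjusted p under 0.05, against 19.2% of all genes.

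The difference between the differentiation changes of the genotypes was tested directly (dICR/dICR change minus wild-type change). Of the 32 genes 0 passed by edgeR and 0 by DESeq2, where 0% and 0.377% of all genes did. With the depth set as a term 0 of the 32 passed, where 0.0968% did. At an unadjusted p under 0.05 were 3 of 32, Itga8 (-2.83 ± 0.99), Itgam (-2.21 ± 0.93) and Itgal (-3.75 ± 1.65), against 9.94% of all genes. The values of the genes that rose in wild type were -0.35 ± 0.44 for Itga7, -0.54 ± 0.34 for Itgb1, -0.86 ± 0.53 for Itgb5, -0.06 ± 0.67 for Itgb6, -0.45 ± 0.61 for Lamb2, -1.42 ± 1.32 for Itga11 and, as above, -2.21 for Itgam (adjusted p = 0.495). Lama2 gave 0.51 ± 0.37 and Itgb7 1.06 ± 1.02. None of these passed, and with errors of this size neither a different nor an equal response was shown.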

How the data were processed

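The deposited table holds raw read counts per gene for 13 libraries, as made by the authors; TopHat2 alignment to mm9 and HTSeq counting are named in the submitters' processing notes. The labels describe ribosomal RNA depletion and 2 sequencing platforms, without saying which library ran on which, and no source used here gives the annotation, the counting mode or the strand setting. Reads shared by near-identical or overlapping genes may therefore be split or lost.

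Genes were filtered with filterByExpr (minimum count 10, total 15) and tested in 1 fit of 4 group means over all libraries with the edgeR 4.0.16 quasi-likelihood test (R 4.3.3, limma 3.58.1) and TMM scaling. Benjamini-Hochberg adjustment ran over 16537 genes with a threshold of 0.05, two-sided. SE is the absolute log2 fold change divided by the square root of F. The same fit was run with the depth set (above or below 20 M counts) as a term and on the libraries of each set alone, where the filter and adjustment ran anew. DESeq2 1.42.0, without independent filtering, other scalings and filters, replicate blocks and fits without each library were the alternatives. Exon lengths for CPM per kb came from protein-coding transcripts of GENCODE vM21 on GRCm38, which may differ from the models used for counting. The fit recovered known changes in simulated counts. These had the same spread for all genes, no difference between depth sets and no changed genes at low levels. They check the code and do not show how well the fit finds changes in these libraries. Figures were drawn with matplotlib 3.10.9.

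The 33 genes, the other lists and the tests were chosen with earlier results of these data known. Named with values in each library were members that passed over all libraries or within a depth set, and the integrin and laminin chains known from skeletal muscle whatever their values; other lists' genes were named where they passed, at most 6 a comparison by smallest p.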

Additional observations from a re-analysis of the deposited data

Results flagged for a closer look

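A library far from the rest of its group, by Dixon's test at the 95% level, was found in 3 of 64 groups of 4 or 5 libraries (32 genes in 2 groups); chance gives about 1 in 20. Itga1, a collagen receptor chain, stood at 26.8 CPM in wild-type myotube 2 and at 0.61 to 1.69 CPM in the other 4 wild-type myotubes (ratio of gap to range on the log2 scale 0.741). Itgb6 was low in the same library, at 185 CPM against 327 to 363 CPM in the other 4 (0.842). Itga2b, the platelet receptor chain, stood at 3.45 CPM in wild-type myoblast 3 and at 4.44 to 4.64 CPM in the other 3 wild-type myoblasts (0.85), a small gap in a narrow group.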

How the results depend on the processing

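The 43 named member results were refitted under up to 27 alternatives each, since not each alternative gives a value for each comparison and gene; 4 kinds of alternative were chosen after seeing the data (group-by-set means, fits without the shallow wild-type myotubes or without the deep wild-type myoblasts, and crossed numbers). Of the refitted values 885 kept direction and side of the threshold, 32 fell below it, 54 passed it and 11 reversed. Causes were not tested. Members called for genotype in myotubes (1) numbered 5 with DESeq2, 2 with the depth set as a term and 0 without the shallow wild-type myotubes. Without each library they numbered 0 to 3, where 1 to 919 of all genes were called. For genotype in myoblasts (0) they numbered 2 with DESeq2, 2 with the depth term, 7 within the shallow set, 6 with group-by-set means and 0 without each library in turn. For wild-type differentiation (7) they numbered 4 with library size alone, 11 with the depth term and 11 within the deep set. Without each library they numbered 4 to 9, where 1769 to 3574 of all genes were called, with 4 without wild-type myoblast 1 or 2. For dICR/dICR differentiation (0) they numbered 1 with DESeq2, 5 with the depth term and 0 without each library in turn.

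Genes called over all those tested also moved. DESeq2 called 1071 against 92 for genotype in myotubes, 397 against 5 in myoblasts, 4287 against 3158 for wild-type and 1138 against 24 for dICR/dICR differentiation, and 62 against 0 for the difference; the depth term called 425, 333, 5267, 1262 and 16. Without each library they ran from 1 to 919, 0 to 6, 1769 to 3574, 0 to 78 and 0 to 0. With library size alone 77.4% of calls for genotype in myotubes were higher, against 59.8% with TMM, and 50% for dICR/dICR differentiation, against 79.2%; that scaling moved the median of all genes by 0.13 and -0.29.

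Reversed were, for genotype in myoblasts, Itga3 at -0.01 without dICR/dICR myoblast 2 (range -0.01 to 0.71 without each library). In wild-type differentiation they were Itga3 at -0.02 with deep group-by-set means, Itgb4 at 0.13 within the shallow set and 0.11 with its group-by-set means, and Itgb8 at 1.08 and 1.07. In dICR/dICR differentiation they were Itga4 at -0.31 and Itga9 at -0.32 without dICR/dICR myotube 2 (ranges -0.31 to 1.7 and -0.32 to 1.65).

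Deviations of same-numbered libraries correlated at -0.41 to 0.52. In wild-type differentiation, numbers 1, 2 and 4, in the same depth set at both stages, gave 0.43, 0.52 and 0.52. Number 3, split between the sets, gave -0.41. The correlations thus carry the depth set and cannot show whether the replicate numbers pair the samples. As a block the replicate numbers left 0 members called for genotype in myotubes and reversed Itga4 (0.04), Itga9 (1.08) and Lamb2 (0.14) in myoblasts. Over all genes the replicate block called 0 for genotype in myoblasts, 3 in myotubes, 3063 for wild-type and 100 for dICR/dICR differentiation. With the dICR/dICR numbers crossed, chosen after seeing the data, 0 members and 1046 genes were called. Below about 1 CPM, where Lama3, Itgal, most values of Itgb2 and others lie, a value rests on few counts in shallow libraries. Differences of these chains could be missed there. Itgb2 reached 1.40 CPM in dICR/dICR myotube 1 and 1.30 CPM in dICR/dICR myoblast 2.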
